A study of Homo sapiens with 9 samples.

Results

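The mitochondrial genome carries 7 genes for subunits of respiratory complex I, the NADH:ubiquinone oxidoreductase. They are ND1, ND2, ND3, ND4L, ND4, ND5 and ND6, and they were chosen by symbol from the 16750 genes of the deposited expression table, where all 7 had a row. All 7 also passed the filter on low values described below. They were measured in PANC-1, a human cell line from a pancreatic ductal carcinoma. Lentivirus carried SLC22A10 into one set of stable clones (SLC22A10_OE), SLC22A15 into another (SLC22A15_OE) and no gene into the third (pLV-EV, called vector). All 3 sets went through puromycin selection and were kept in puromycin. The products of both transduced genes belong to the SLC22 family of organic ion transporters. Each group had 3 libraries of total RNA, depleted of ribosomal RNA and made with a strand-specific kit. The sources used here do not give whether a set was 1 clone or a mixture.

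Complex I takes electrons from NADH, passes them to ubiquinone and pumps protons across the inner mitochondrial membrane. The ND proteins form the core of its membrane arm, and the nuclear genome encodes the core subunits of the peripheral arm and all accessory subunits. Mitochondrial DNA is transcribed into long precursors that span many genes. Most mRNAs are released when the tRNAs between them are cut out, so that neighbouring mRNAs start from the same precursor. Of these genes, ND6 alone is read from the light-strand promoter. ND4L and ND4 stay together on 1 mRNA with overlapping reading frames.

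The 3′ ends of the reading frames are shown because they differ between the members in whether the stop codon is complete. Each line gives the last 24 bases of a gene, 5′ to 3′ on its own strand, from the GENCODE 29 transcripts (GRCh38), with the encoded letters of the stop codon in capitals.
ND1, chrM:4239-4262, plus strand: ctccagcattccccctcaaaccTA
ND2, chrM:5488-5511, plus strand: ccccttttatactaataatcttaT
ND3, chrM:10381-10404, plus strand: aaaaaggattagactgaaccgaaT
ND4L, chrM:10743-10766, plus strand: aacctaaacctactccaatgcTAA
ND4, chrM:12114-12137, plus strand: acatcattaccgggttttcctctT
ND5, chrM:14125-14148, plus strand: ctaaccctactcctaatcacaTAA
ND6, chrM:14149-14172, minus strand: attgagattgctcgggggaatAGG
ND1, ND2, ND3 and ND4 end in an incomplete stop codon, which the added poly(A) tail completes in the mRNA. ND4L and ND5 end in a full TAA, and ND6 ends in AGG. The genes themselves span chrM:3307-4262 (ND1, 956 bases), chrM:4470-5511 (ND2, 1042 bases) and chrM:10059-10404 (ND3, 346 bases). ND4L lies at chrM:10470-10766 (297 bases), ND4 at chrM:10760-12137 (1378 bases) and ND5 at chrM:12337-14148 (1812 bases). All 6 are on the plus strand, and ND6 lies at chrM:14149-14673 (525 bases) on the minus strand. The annotation gives each as a gene of 1 exon.

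The junction of ND4L and ND4 is shown because both genes had similar log2 fold changes in the comparisons below. In this stretch the 7 capitals are the bases that both reading frames share.
ND4L and ND4, chrM:10730-10796, plus strand: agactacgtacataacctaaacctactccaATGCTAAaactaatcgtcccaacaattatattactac
The capitals hold the ATG that starts ND4 and the TAA that ends ND4L. Reads over the junction belong to both genes, and the sources used here give neither how the authors' counting assigned them nor whether it used strand. Therefore reads of ND5 and ND6 could not be told apart from reads of the opposite strand. Copies of mitochondrial genes in the nuclear genome could likewise have taken or given reads.

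Library totals ran from 28.4 to 42.9 M reads. SLC22A10 reached 85.4 ± 5.53 CPM (read counts scaled to a library of 1e+06 reads; SD, n = 3) in SLC22A10_OE, against 1 read over the 3 vector libraries. SLC22A15_OE libraries had 75.9 ± 2.48 CPM of SLC22A15, and vector libraries 6.11 ± 0.571 CPM. A two-sided exact permutation test gave p = 0.1 for each gene in its own line, and groups of 3 allow no smaller value. All 4 ductal keratins on the marker list had a row, and their summed level was 381 to 424 CPM in SLC22A10_OE, 207 to 226 CPM in SLC22A15_OE and 312 to 343 CPM in vector. Of the leukocyte, endothelial and fibroblast lists, PTPRC, PECAM1 and DCN had no row. CD14 and CD68, the 2 of 5 leukocyte markers with a row, summed to 31.0 to 33.7 CPM in SLC22A10_OE, 21.0 to 21.4 CPM in SLC22A15_OE and 16.1 to 19.7 CPM in vector. CDH5, 1 of 4 endothelial markers, had 6.24 to 7.65 CPM in SLC22A10_OE, 2.52 to 2.86 CPM in SLC22A15_OE and 0.901 to 1.45 CPM in vector. COL1A1, 1 of 5 fibroblast markers, had 4.24 to 5.43 CPM in SLC22A10_OE, 0.299 to 0.603 CPM in SLC22A15_OE and 0.398 to 0.677 CPM in vector. The 2 of 6 acinar markers with a row summed to 3.18 to 4.03 CPM in SLC22A10_OE, 4.68 to 5.91 CPM in SLC22A15_OE and 4.98 to 5.51 CPM in vector, and the 2 of 5 endocrine markers to 0.180 to 0.343 CPM in SLC22A10_OE, 0.546 to 0.794 CPM in SLC22A15_OE and 0.956 to 1.38 CPM in vector. Their part in the results below was not tested. Nothing in the descriptions says that libraries of a group came from separate cultures, so p-values measure only the spread between libraries, which may be technical.

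SLC22A10_OE was compared with vector to find transcripts that differed between these sets of clones. Complex I mRNAs of the mitochondrial genome did not move together. ND4 and ND4L were over 1.5-fold higher, ND5 was 1.24-fold and ND6 1.13-fold higher, and ND3 fell to 0.813-fold of vector. ND1 and ND2 did not pass the test. By limma on log2(CPM + 1) with a Benjamini-Hochberg adjusted p under 0.05, 4 of the 7 rose and 1 fell. Of all 14554 genes tested, 34.7% were called higher and 32.5% lower in this comparison. The members' median log2 fold change was 0.18, against 0.0046 over all genes tested.

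ND4, an antiporter-like subunit of the proton-pumping arm, had 4121, 3248 and 3782 CPM in SLC22A10_OE libraries 1 to 3, against 2237, 2339.5 and 2447 CPM in vector libraries 1 to 3. Every SLC22A10_OE library lay above every vector library. The means were 3717 ± 440.0 CPM in SLC22A10_OE and 2341 ± 105 CPM in vector (SD, n = 3 each). The log2 fold change was 0.66 (SE 0.08, limma Benjamini-Hochberg adjusted p = 5.37e-06), a 1.58-fold difference. ND4L, a small membrane subunit, had 605, 532 and 574 CPM in SLC22A10_OE, against 344, 366 and 395 CPM in vector. Here too the groups did not overlap. Its log2 fold change was 0.63 (SE 0.06, limma Benjamini-Hochberg adjusted p = 1.49e-06), a 1.55-fold difference.

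ND5, the antiporter-like subunit at the far end of the membrane arm, had 2759, 2212 and 2599 CPM in SLC22A10_OE, against 1931, 2038 and 2094 CPM in vector. The groups did not overlap, though the lowest SLC22A10_OE library was close to the highest vector library. The log2 fold change was 0.31 (SE 0.07, limma Benjamini-Hochberg adjusted p = 0.00131). Scaling to the mitochondrial mRNA reads, described below, turned it to -0.025.

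ND6, the light-strand member and a membrane subunit next to ND3 and ND4L, had 400.2, 339.8 and 402 CPM in SLC22A10_OE, against 315, 337 and 357 CPM in vector. SLC22A10_OE library 2 lay within the vector range. The log2 fold change was 0.18 (SE 0.07, limma Benjamini-Hochberg adjusted p = 0.0304), with the direction turned to -0.16 when libraries were scaled to the mitochondrial mRNA reads. The call was lost without SLC22A10_OE library 1 (adjusted p = 0.121, limma) or 3 (adjusted p = 0.119), without vector library 1 (adjusted p = 0.0936) or 2 (adjusted p = 0.0560), and with each library centred on its median (adjusted p = 0.467).

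ND3, a small subunit at the junction of the membrane and peripheral arms, went the other way. It had 114, 97.0 and 116 CPM in SLC22A10_OE, against 129, 134 and 139 CPM in vector. All SLC22A10_OE libraries lay below all vector libraries. The means were 109 ± 10.4 CPM in SLC22A10_OE and 134 ± 5.13 CPM in vector (SD, n = 3 each). ND3 had a log2 fold change of -0.30 (SE 0.07, limma Benjamini-Hochberg adjusted p = 0.00165). Its gene lies just before ND4L on the same strand, with the tRNA-Arg gene between them.

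ND1, which lines the ubiquinone channel, had 2228, 1761 and 2167 CPM in SLC22A10_OE, against 2189, 2219.8 and 2265 CPM in vector. The groups overlapped, and SLC22A10_OE library 2 alone lay far below the others. ND1 had a log2 fold change of -0.12 (SE 0.07, 95% interval -0.28 to 0.032, limma Benjamini-Hochberg adjusted p = 0.143). Without SLC22A10_OE library 1 it was -0.19 (limma adjusted p = 0.0424), and without library 2 it was -0.018 (adjusted p = 0.747). With each library centred on its median it was -0.24 (limma adjusted p = 0.00865). ND2, another antiporter-like subunit, had 2624, 2046 and 2524 CPM in SLC22A10_OE, against 2296, 2345 and 2399 CPM in vector. SLC22A10_OE library 2 was below the vector range and the other 2 were above it. The log2 fold change was 0.023 (SE 0.08, 95% interval -0.14 to 0.19, limma Benjamini-Hochberg adjusted p = 0.800). Without SLC22A10_OE library 2 it was 0.13 (limma adjusted p = 0.0341), and with scaling to mitochondrial mRNA reads it was -0.32.

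**Figure D1:**
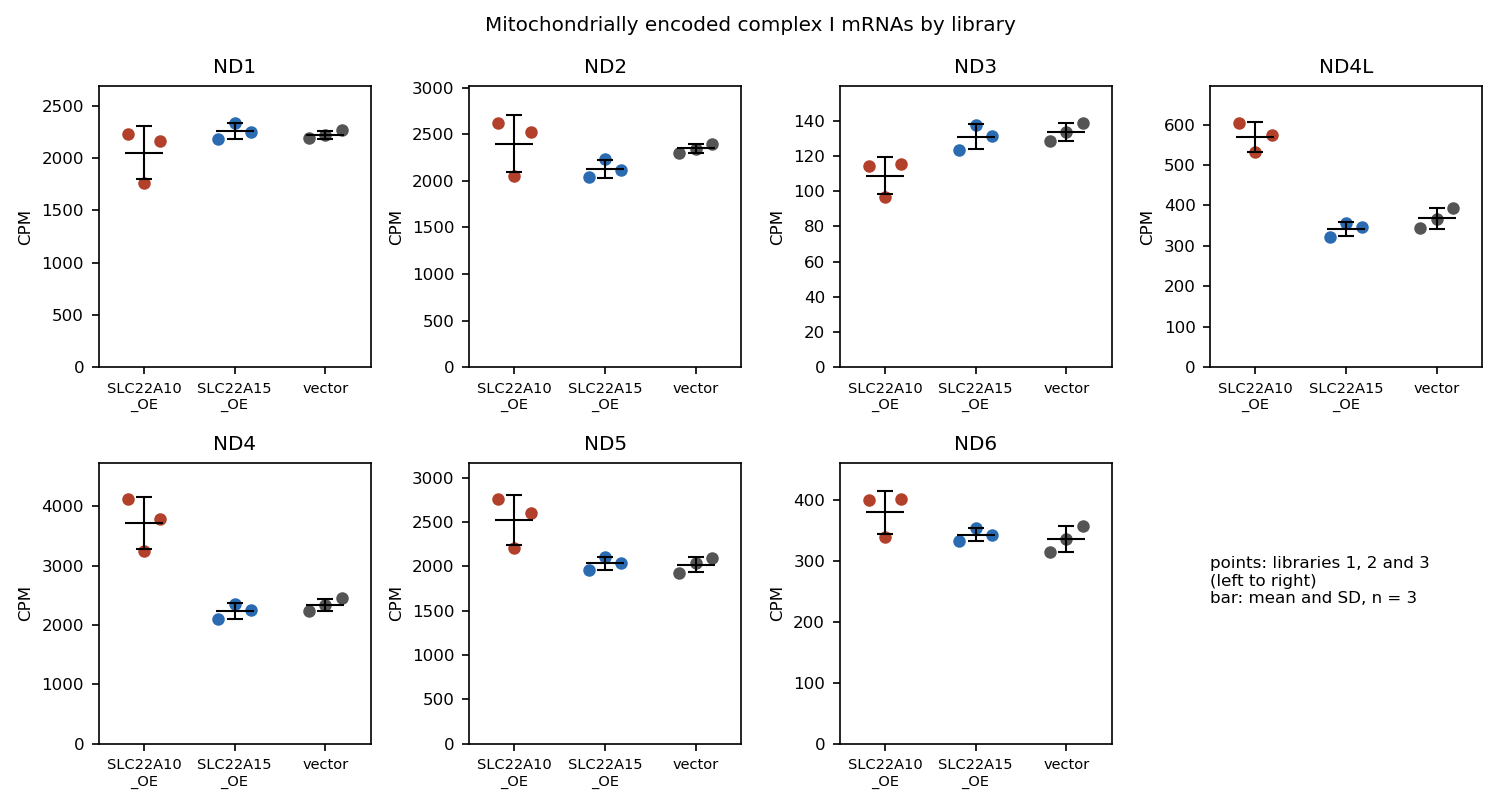
CPM of the 7 complex I mRNAs of the mitochondrial genome, 1 panel per gene, by group on the x axis. Points are libraries 1 to 3 and bars are the mean and SD; ND4 and ND4L in SLC22A10_OE stand above both other groups, and ND3 in SLC22A10_OE lies below them.

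The authors' deposited table gave an FDR under 0.05 to the same 5 members. In the authors' deposited table the log2 fold changes were 0.67 for ND4 (FDR 1.99e-06), 0.63 for ND4L (FDR 7.67e-07), 0.32 for ND5 (FDR 0.000784), 0.18 for ND6 (FDR 0.0275) and -0.30 for ND3 (FDR 0.00153).

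Of the 6 mitochondrial mRNAs outside complex I, 3 rose in SLC22A10_OE, 0 fell and 3 did not pass, with a median log2 fold change of 0.25. Of all genes tested, 34.7% were called higher and 32.5% lower in this comparison. COX1, the catalytic subunit of cytochrome c oxidase, averaged 8688 ± 635 CPM in SLC22A10_OE and 5859 ± 133 CPM in vector (SD, n = 3 each), a log2 fold change of 0.57. COX2 and COX3, the other mitochondrial subunits of that oxidase, had 0.35 and 0.31. ATP6 had 0.19 (limma Benjamini-Hochberg adjusted p = 0.0632), ATP8 had 0.072 and CYTB had -0.016. In the authors' deposited table ATP6 did pass (edgeR FDR 0.0455). The order of genes along the genome did not order these values. ND3 (-0.30) lies between COX3 (0.31) and ND4L (0.63) on the same strand.

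**Figure D2:**
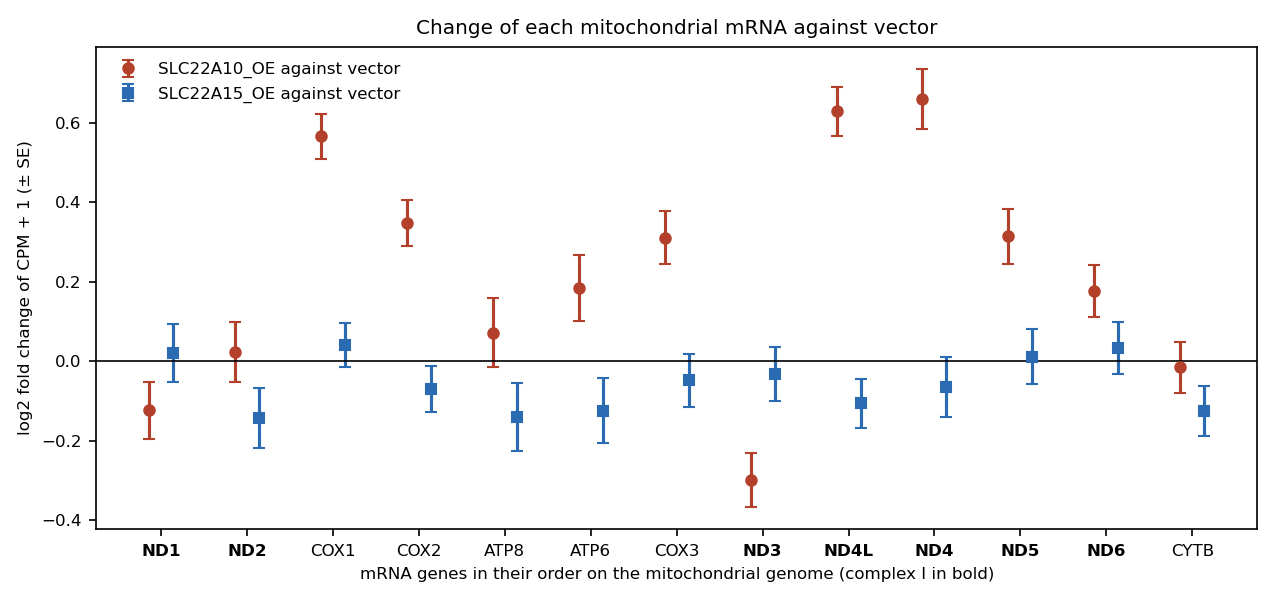
Log2 fold change of CPM + 1 against vector, with SE bars, for the 13 mitochondrial mRNAs in genome order on the x axis (complex I genes in bold). Circles are SLC22A10_OE and squares are SLC22A15_OE; SLC22A10_OE spans -0.30 (ND3) to 0.66 (ND4), while every SLC22A15_OE value lies between -0.14 and 0.040.

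The level of all mitochondrial mRNA also differed. The 13 mRNAs took 2.80 ± 0.278% of all reads in SLC22A10_OE, 2.22 ± 0.0926% in SLC22A15_OE and 2.26 ± 0.0634% in vector (SD, n = 3 each). The lowest SLC22A10_OE library, at 2.502%, lay above the highest vector library, at 2.32%. The 7 complex I mRNAs took 1.16 ± 0.134% in SLC22A10_OE, 0.959 ± 0.0405% in SLC22A15_OE and 0.982 ± 0.0311% in vector. Here SLC22A10_OE library 2, at 1.006%, lay within the vector range, below vector library 3 at 1.012%. In summed CPM the same library lay just above vector library 3 (10236 against 10096.5 CPM). In bulk libraries, more cells with a transcript and more RNA per cell cannot be told apart.

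Make-up within the mitochondrial mRNA reads also differed. As a share of the reads of the 13 mRNAs, ND4 took 13.32%, 12.76% and 12.98% in SLC22A10_OE libraries 1 to 3, against 10.3%, 10.4% and 10.6% in vector. ND1 took 7.20%, 6.92% and 7.43% in SLC22A10_OE, against 10.1%, 9.84% and 9.81% in vector. ND3 took 0.369%, 0.381% and 0.396% in SLC22A10_OE, against 0.592%, 0.594% and 0.602% in vector. In none of these shares did the groups overlap, and SLC22A10_OE library 2, low in CPM for all 7, stood with its partners. The 7 together took 40.2% to 41.7% of the mitochondrial mRNA reads in SLC22A10_OE, 43.0% to 43.3% in SLC22A15_OE and 43.4% to 43.7% in vector.

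With libraries scaled to these reads, 2 members rose and 3 fell in SLC22A10_OE. Of all 14554 genes tested, 2299 were called higher and 7873 lower with this scaling. ND4 had a log2 fold change of 0.32 (limma Benjamini-Hochberg adjusted p = 0.00164) and ND4L 0.29 (adjusted p = 0.00367). ND3 had -0.64 (limma adjusted p = 4.44e-08), ND1 -0.46 (adjusted p = 1.28e-05) and ND2 -0.32 (adjusted p = 0.00189). ND5 at -0.025 and ND6 at -0.16 did not pass. This scaling moved the median of all genes by -0.31. Relative to that shift ND4 and ND4L stood above the median gene, as they did in CPM. ND2 stood close to the median gene (-0.31), so its fall was about that of the scaling itself. Because the shares sum to a fixed total, they show unequal change between mRNAs and not which of them changed.

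Ratios within a library need no scaling. ND4 stood to ND3 at 36.1, 33.5 and 32.7 in SLC22A10_OE libraries 1 to 3, against 17.4, 17.5 and 17.6 in vector. SLC22A15_OE libraries had 17.0, 17.1 and 17.2. SLC22A10_OE stood far above both other groups, and SLC22A15_OE lay slightly below vector without overlap. The ratio of ND4 to ND1 was 1.81 ± 0.0584 in SLC22A10_OE, 0.991 ± 0.0263 in SLC22A15_OE and 1.05 ± 0.0290 in vector (SD, n = 3 each). ND4 to ND4L, which share an mRNA, stood at 6.51 ± 0.359 in SLC22A10_OE, 6.55 ± 0.0552 in SLC22A15_OE and 6.37 ± 0.158 in vector, and these ranges overlapped. ND1 to ND2, neighbours on the heavy-strand precursor, was 0.856 ± 0.00602 in SLC22A10_OE, 1.06 ± 0.0117 in SLC22A15_OE and 0.948 ± 0.00471 in vector. This ratio set all 3 groups apart with no overlap. ND5 to ND6, on opposite strands, was 6.62 ± 0.236 in SLC22A10_OE, 5.92 ± 0.0485 in SLC22A15_OE and 6.02 ± 0.142 in vector.

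**Figure D3:**
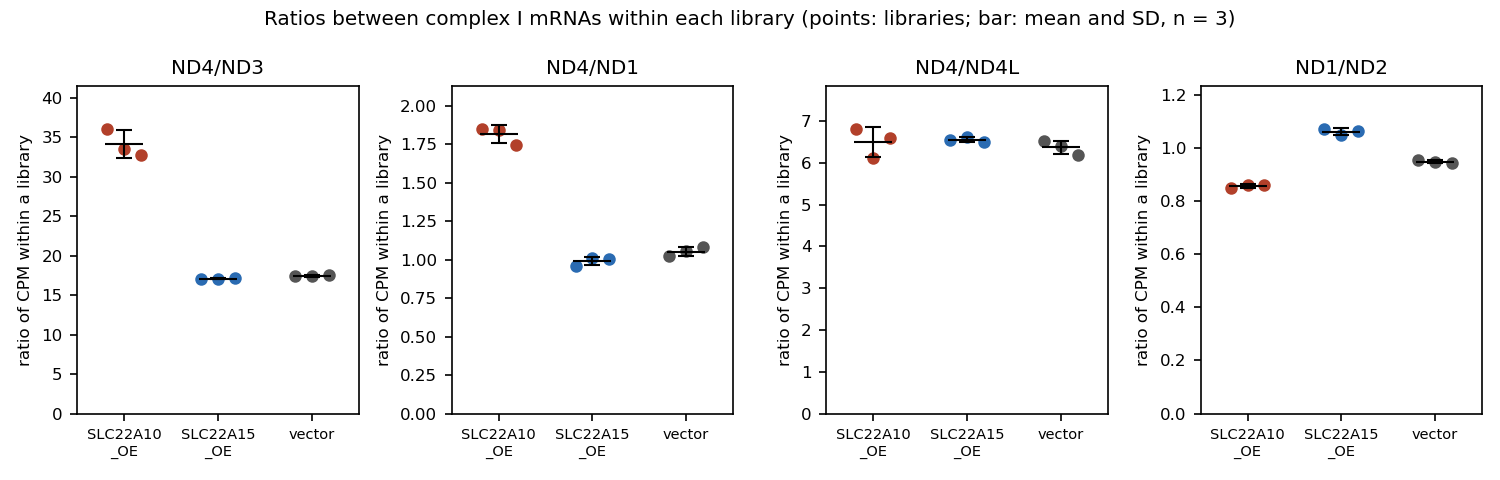
Ratio of CPM between pairs of complex I mRNAs within each library, 1 panel per pair, by group on the x axis. Points are libraries and bars are the mean and SD (n = 3); ND4/ND3 is 34.1 ± 1.75 in SLC22A10_OE, against 17.1 in SLC22A15_OE and 17.5 in vector, while ND4/ND4L overlaps in all groups.

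SLC22A15_OE was compared with vector in the same fit, with the same vector libraries. None of the 7 complex I mRNAs passed the unpaired test in SLC22A15_OE, where 10.8% of all genes tested were called higher and 9.58% lower. A planned fit that paired the libraries by number over all 9 libraries also called 0. In a paired fit of SLC22A15_OE and vector alone, chosen after seeing the data, 3 (ND2, ND4L and ND4) were slightly lower. The limma log2 fold changes ran from -0.14 (ND2) to 0.033 (ND6), with a median of -0.032 against 0.0056 over all genes. In the limma fit without pairing the count at an unadjusted p under 0.05 was 0, and edgeR and DESeq2 also called 0. The 95% intervals of the 7 log2 differences lay between -0.31 and 0.18, which leaves room for changes of that size. Same-numbered libraries of these groups correlated in their deviations, though numbers 2 and 3 were not set apart from each other, and the number was also used as a replicate block in a fit of SLC22A15_OE and vector, chosen after seeing the data. In it the fold changes stayed as they were, and the limma Benjamini-Hochberg adjusted p was 1.93e-07 for ND2, 0.000763 for ND4L and 0.00982 for ND4. ND1, ND3, ND5 and ND6 did not pass in the block fit (limma adjusted p = 0.436, 0.436, 0.706 and 0.327). That fit called 2952 genes higher and 2930 lower of 14147, against 1572 and 1394 without the block. Library 1 of both groups was the one low in mitochondrial ribosomal RNA, as described below, and its part in the pairing was not tested. SLC22A10_OE library 3, likewise low, correlated with SLC22A15_OE library 1 (r = 0.485) and with vector library 1 (r = 0.517) despite its different number.

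ND2 had 2038, 2231 and 2114 CPM in SLC22A15_OE, against 2296, 2345 and 2399 CPM in vector. It was the member whose SLC22A15_OE libraries all lay below all vector libraries. Its log2 fold change was -0.14 (SE 0.08, limma Benjamini-Hochberg adjusted p = 0.220). Without SLC22A10_OE library 2, which enters this contrast only through the estimate of the spread and the genes tested, the limma adjusted p was 0.0440. ND4 had 2099.7, 2358 and 2258 CPM in SLC22A15_OE, within reach of the vector values above, and a log2 fold change of -0.065 (95% interval -0.23 to 0.097). ND3 had 124, 138 and 132 CPM in SLC22A15_OE, which also overlapped vector. ND4L had 321, 357 and 347 CPM in SLC22A15_OE, and its log2 fold change was -0.11 (limma Benjamini-Hochberg adjusted p = 0.268). ND1 had 2185, 2339 and 2248 CPM in SLC22A15_OE and a log2 fold change of 0.021. ND5 had 1959, 2109 and 2039.9 CPM in SLC22A15_OE (0.011), and ND6 had 334, 354 and 343 CPM (0.033). For all 3 the SLC22A15_OE libraries overlapped vector. All of the 6 other mitochondrial mRNAs also missed the threshold in SLC22A15_OE in the unpaired fit.

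The overexpressing lines were then set against each other, which tests whether their differences from vector were equal, since the vector libraries cancel. An effect of a transduced gene and a difference between sets of clones cannot be told apart. ND4L had a log2 fold change of -0.74 (SE 0.06, limma Benjamini-Hochberg adjusted p = 5.55e-07) in SLC22A15_OE relative to SLC22A10_OE. ND4 had -0.73 (SE 0.08, limma Benjamini-Hochberg adjusted p = 3.21e-06) and ND5 had -0.30 (SE 0.07, adjusted p = 0.00192). ND3 was higher in SLC22A15_OE, at 0.27 (SE 0.07, limma Benjamini-Hochberg adjusted p = 0.00399). For each of these 4 the libraries of the lines did not overlap, though such separation was not counted over all genes. By the test, 1 member was thus higher and 3 were lower. Among all genes tested, 30.8% were higher and 32.1% lower. ND1 at 0.14, ND2 at -0.17 and ND6 at -0.14 did not pass (limma adjusted p = 0.0960, 0.0725 and 0.0739). Without SLC22A10_OE library 2, ND2 (-0.28, limma adjusted p = 0.000689) and ND6 (-0.22, adjusted p = 0.00655) passed. ND1 was 0.038 without SLC22A10_OE library 2 (limma adjusted p = 0.488) and passed without library 1 (0.21, adjusted p = 0.0295). ND6 passed without vector library 1 (adjusted p = 0.0431). Scaled to mitochondrial mRNA reads, ND2, ND5 and ND6 turned to 0.21, 0.069 and 0.23.

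Levels per kilobase of gene allow the members to be ordered, but not by mRNA amount alone. ND4 and ND4L share an mRNA yet differed per kb in every group, with no overlap between libraries. The cause was not tested. In SLC22A10_OE the order was ND4 (2698 CPM per kb), ND2 (2301), ND1 (2147), ND4L (1919), ND5 (1393), ND6 (725) and ND3 (315). From ND4 down to ND4L each neighbour overlapped the next over the 3 libraries, and the lower ones were separate. In SLC22A15_OE the order was ND1 (2361 CPM per kb), ND2 (2042), ND4 (1625), ND4L (1151), ND5 (1124), ND6 (655) and ND3 (379), where only ND4L and ND5 overlapped. Vector had ND1 (2327 CPM per kb), ND2 (2252), ND4 (1699), ND4L (1239.6), ND5 (1115), ND6 (640.5) and ND3 (387), where only ND1 and ND2 overlapped. ND4 thus had the highest mean in SLC22A10_OE and stood below ND1 and ND2 in the other groups, while ND6 and ND3 were the lowest in all 3.

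Between the libraries of a group the members largely moved together. SLC22A10_OE library 2 was the lowest of its group for 7 of 7 members and 13 of 13 mitochondrial mRNAs. The same held for 7 of 7 members in SLC22A15_OE library 1 and vector library 1. The share of reads from mitochondrial ribosomal RNA was low in 1 library per group. It was 0.0151% in SLC22A10_OE library 3, against 0.0790% and 0.0843% in its partners. The share was 0.0111% in SLC22A15_OE library 1, against 0.0472% and 0.0547%, and 0.00958% in vector library 1, against 0.0454% and 0.0516%. Without these 3 libraries ND1 in SLC22A10_OE passed the test against vector (-0.18, limma adjusted p = 0.00644) and ND6 did not (0.088, limma adjusted p = 0.105), and ND3, ND4, ND4L and ND5 kept their calls. RNR1 and RNR2, the ribosomal RNAs themselves, had log2 fold changes of 0.72 (SE 1.05) and 0.75 (SE 0.73) in SLC22A10_OE and did not pass.

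**Figure D4:**
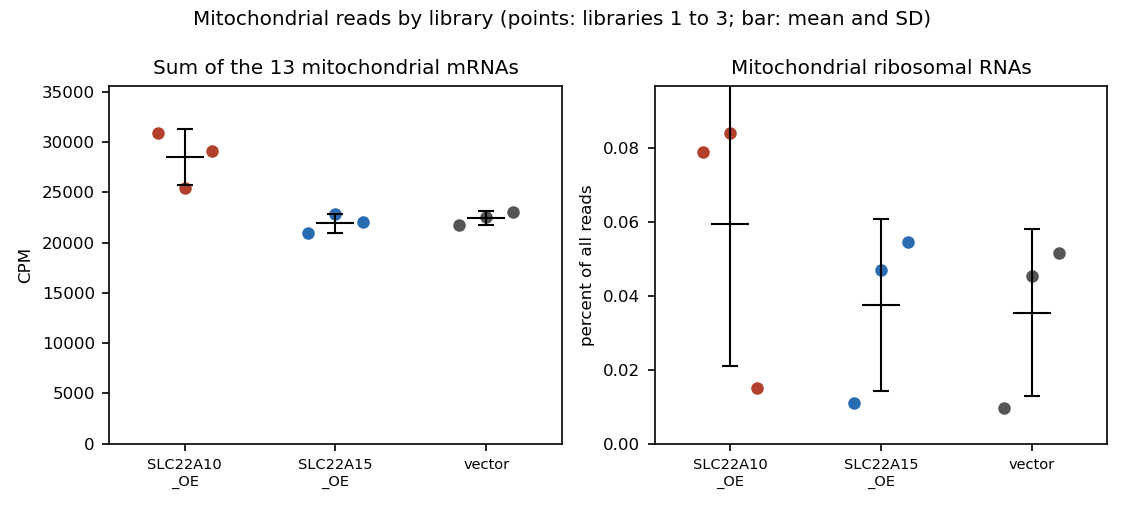
Summed CPM of the 13 mitochondrial mRNAs (left) and mitochondrial ribosomal RNA as a percent of all reads (right), by group on the x axis. Points are libraries 1 to 3 and bars are the mean and SD; SLC22A10_OE is highest in mRNA, and 1 library of each group is low in ribosomal RNA.

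The nuclear genes of complex I were counted beside the members. Of 7 nuclear core subunits, 4 rose and 0 fell in SLC22A10_OE against vector, with a median log2 fold change of 0.22. NDUFV1, which binds NADH, averaged 107 ± 5.54 CPM in SLC22A10_OE and 73.6 ± 5.12 CPM in vector (SD, n = 3 each; log2 fold change 0.54). NDUFS8 had 0.22 and NDUFS1, an iron-sulfur subunit, had 0.21. Of 30 accessory subunits, 15 rose and 2 fell, with a median of 0.23. NDUFA13, NDUFA5, NDUFB2 and NDUFB11 had log2 fold changes of 0.66, 0.63, 0.58 and 0.48. The 2 that fell were NDUFV3 (-0.29) and NDUFS6 (-0.28), named after their values were seen. In SLC22A15_OE against vector, 3 of 30 accessory subunits rose (NDUFB2 0.60, NDUFA5 0.50 and NDUFAB1 0.33) and 0 fell. These shares stand against 34.7% of all genes higher in SLC22A10_OE and 10.8% in SLC22A15_OE.

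Among 19 complex I assembly factors, 6 rose and 8 fell in SLC22A10_OE, with a median of -0.048, where 34.7% of all genes were higher and 32.5% lower. NDUFAF4, which acts early in assembly, averaged 20.3 ± 0.173 CPM in SLC22A10_OE and 42.7 ± 2.78 CPM in vector (SD, n = 3 each; log2 fold change -1.03). COA1 had -0.56, TMEM70 -0.53 and NDUFAF5 -0.51. In SLC22A15_OE, 1 rose (FOXRED1, 0.22) and 3 fell (NDUFAF4 -0.31, TMEM126B -0.29 and COA1 -0.29), where 10.8% of all genes were higher and 9.58% lower. 

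Genes that transcribe and process the mitochondrial RNA are read against the same shares of all genes, 34.7% higher and 32.5% lower in SLC22A10_OE and 10.8% and 9.58% in SLC22A15_OE. Of 9 transcription genes, 2 rose and 4 fell in SLC22A10_OE. TFAM, which packages mitochondrial DNA and starts transcription, had a log2 fold change of -0.36 and MTERF3 had -0.37. POLRMT, the mitochondrial RNA polymerase, had 0.42 and MTERF1 had 0.35. In SLC22A15_OE, 2 of the 9 rose and 0 fell, TFB2M (0.40), a transcription factor that opens the promoter, and MTERF1 (0.59). Of 30 RNA processing and stability genes tested, 7 rose and 13 fell in SLC22A10_OE, with a median of -0.092. ELAC2, which cuts tRNA 3′ ends from the precursor, had -0.35, and PNPT1, a component of the RNA-degrading complex, had -0.51. FASTKD5, which acts on mRNA ends that no tRNA flanks, had -0.53, and MRM2, a ribosomal RNA methyltransferase, had -0.49. In SLC22A15_OE, 2 rose (FASTK 0.55 and KIAA0391 0.23) and 1 fell (REXO2 -0.28).

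Of 8 regulators of mitochondrial biogenesis tested, 0 rose and 4 fell in SLC22A10_OE, where 34.7% of all genes were higher and 32.5% lower. The coactivators PPARGC1B and PPRC1 had -0.94 and -0.87, and the transcription factors NRF1 and GABPB1 had -0.43 and -0.29. In SLC22A15_OE, 2 rose (ESRRA 0.37 and NRF1 0.20) and 1 fell (PPARGC1B -0.25), where 10.8% of all genes were higher and 9.58% lower. Of 19 genes for replication and upkeep of mitochondrial DNA, 4 rose and 7 fell in SLC22A10_OE, against the same shares of all genes. ATAD3B, ATAD3A and TWNK, the last the replicative helicase, had -0.94, -0.77 and -0.70, and TK2, a thymidine kinase, had 0.72. ATAD3A and ATAD3B are closely similar copies, so reads could have been split between them. In SLC22A15_OE, 3 rose (TOP1MT 0.36, LIG3 0.23 and TK2 0.18) and 0 fell. Of the mitochondrial tRNA genes 6 had a row and 1 was tested, TRNP, at 0.19 in SLC22A10_OE (limma Benjamini-Hochberg adjusted p = 0.0429) and 0.22 in SLC22A15_OE (adjusted p = 0.0565). Of the nuclear copies listed 5 had a row, all of the MTRNR2L family of ribosomal RNA copies, and of the 3 tested MTRNR2L3 fell in SLC22A10_OE (-0.37).

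**Figure D5:**
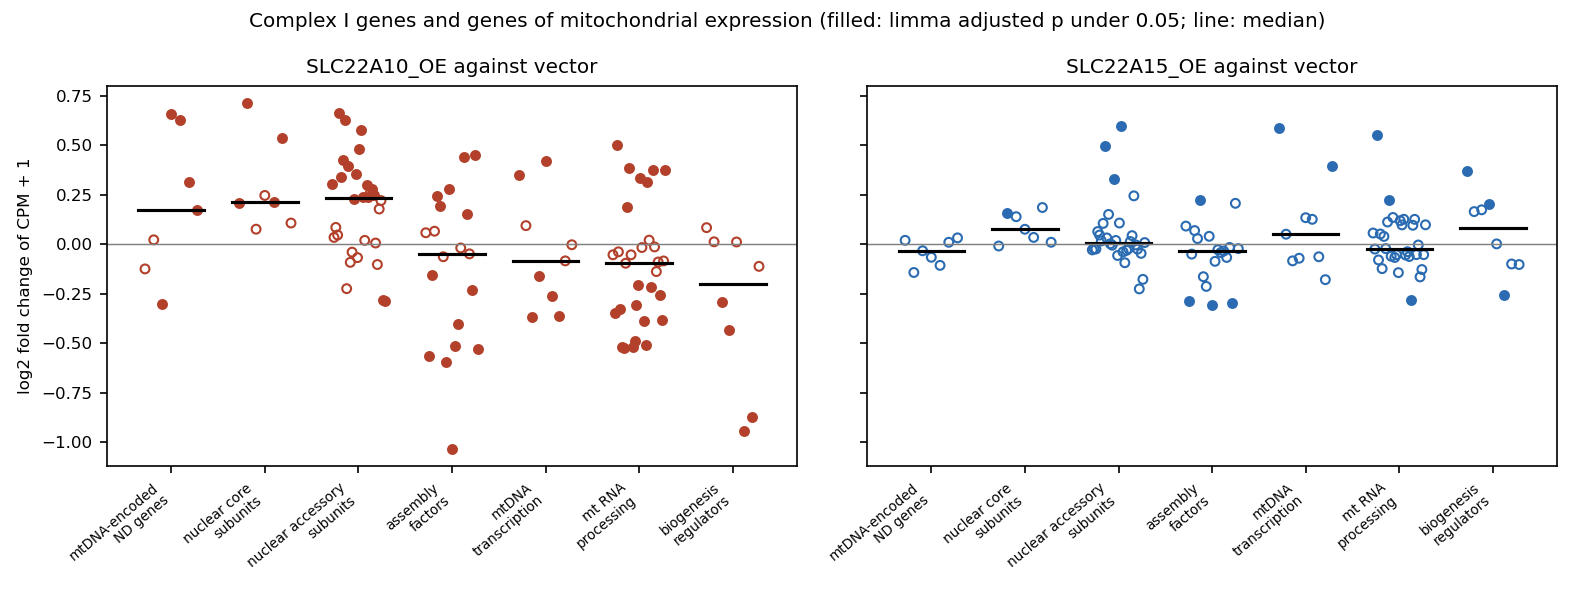
Log2 fold change of CPM + 1 for each tested gene of 7 lists, by list on the x axis, in SLC22A10_OE (left) and SLC22A15_OE (right) against vector. Filled points passed limma at an adjusted p under 0.05, open points did not, and lines are medians; in SLC22A10_OE the medians are 0.18 for the mitochondrial ND genes, 0.22 and 0.23 for the nuclear subunits and -0.20 for the biogenesis regulators.

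The likeness of other genes to the members was measured as the root mean square difference of log2(CPM + 1), centred over the 9 libraries, from the members' mean. Because the members did not move together, closeness to their mean is not closeness to each member. Outside the mitochondrial genome the closest were LOC441155 (0.0572), ZNF443 (0.0579), LOC440311 (0.0607), PARP11 (0.0610) and RPS15A (0.0619). Between mitochondrial mRNAs the closest pairs by the same measure were ND2 and CYTB (0.0354), COX3 and ND5 (0.0405) and ND4L and ND4 (0.0455). ND3 was furthest from ND4 (0.462) and from ND4L (0.458). All genes of a library share its scaling, which enters every such value.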

How the data were processed

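RNA of 9 PANC-1 libraries was measured, 3 per group. The authors deposited CPM per gene and library and, per the file headers, a table per comparison with log2 fold change, p-value and FDR. The submitters' processing notes name edgeR and the builds hg38 and mm9; no source used here gives the aligner, counting program or annotation. Columns carry a group name and a number, and the numbers could not be matched to the titles' suffixes; libraries are named by group and number. The CPM were turned back into reads, and 100% of them came out whole to within 0.1 read. Fitted with edgeR, those reads differed from the authors' deposited log2 fold changes by at most 2.82e-08.

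The main test was limma (3.58.1, R 4.3.3) on log2(CPM + 1), moderated with a mean trend, 9 libraries in 1 fit with 6 residual degrees of freedom. Fold changes on this scale understate those of low genes. Genes with at least 1 CPM in at least 3 libraries were tested (14554 of 16750), with two-sided p-values adjusted by Benjamini-Hochberg over them and a threshold of 0.05. Replicates differed beyond sampling noise in every group (chi-square per degree of freedom 2.56 to 23.0), so none was counted as 1 library deposited more than once. The distances were uneven. SLC22A15_OE libraries 2 and 3 were closer to each other (2.56) than to library 1 (14.3 and 14.8). The same held in vector (3.97, against 23.0 and 14.8), and SLC22A10_OE pairs had 7.27, 12.4 and 8.93. Whether some libraries were more closely related was not tested. The fit was tested on simulated data drawn without shifts of whole libraries, unlike these data, and no result here rests on that test. Alternatives were edgeR (4.0.16) and DESeq2 (1.42.0) on recovered reads, a pseudocount of 0.25 CPM, no filter, 3 scalings, a term for low ribosomal RNA, a replicate block, and fits without libraries or with 2 groups. The labels do not say that a number marks a shared culture or day. Deviations from group means correlated over 0.1 in every same-numbered pair of SLC22A15_OE and vector (r = 0.194 to 0.566). The main fit left these pairs unpaired, and the number entered only as a block in alternative fits. SLC22A15_OE library 3 correlated more with vector library 2 (r = 0.349) than with vector library 3 (r = 0.194), so the data do not set numbers 2 and 3 apart. Not all same-numbered pairs with SLC22A10_OE correlated over 0.1 (r = -0.411 to 0.143). Across numbers, SLC22A10_OE library 3 correlated with SLC22A15_OE library 1 (r = 0.485) and vector library 1 (r = 0.517). These are the libraries low in mitochondrial ribosomal RNA, so the correlations do not show that the number marks a pairing. Members and lists were chosen with earlier results of these data known. Named genes were the members, the other mitochondrial mRNA and ribosomal RNA genes, the transduced genes, up to 4 called members per list by smallest adjusted p (or 2 by level where none was called) and the 5 genes most like the members; a gene that this rule named is not reported here. Gene spans and sequences came from GENCODE 29, which uses GRCh38, the assembly that hg38 names.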

Additional observations from a re-analysis of the deposited data

Results flagged for a closer look

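The differences of SLC22A15_OE and SLC22A10_OE from vector were unequal for 4 of the 7 members by the direct contrast of the lines, which tests that inequality itself. Among all genes tested, 30.8% were called higher and 32.1% lower in this contrast. On the log2 scale, the value in SLC22A15_OE minus that in SLC22A10_OE was 0.27 for ND3, -0.74 for ND4L, -0.73 for ND4 and -0.30 for ND5. The limma Benjamini-Hochberg adjusted p-values were 0.00399, 5.55e-07, 3.21e-06 and 0.00192. Scaled to the mitochondrial mRNA reads, the ND5 difference turned to 0.069.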

How the results depend on the processing

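Of 427 recomputed member values, 379 kept their direction and side of the threshold, 23 newly passed, 7 no longer passed and 18 changed sign. ND3, ND4 and ND4L kept call and direction under every alternative run in SLC22A10_OE against vector and between the lines, and ND5 did so under all but scaling to mitochondrial mRNA reads. That scaling turned, in SLC22A10_OE against vector, ND2 (-0.32), ND5 (-0.025) and ND6 (-0.16), between the lines ND2 (0.21), ND5 (0.069) and ND6 (0.23), and in SLC22A15_OE against vector ND3 (0.0016). The other changes of sign were of values that passed neither way. Median centring gave -0.097 for ND2 in SLC22A10_OE and -0.0053 for ND1 and -0.015 for ND5 in SLC22A15_OE, and ND2 in SLC22A10_OE was -0.034 without the libraries low in ribosomal RNA. With 1 library left out, ND2 in SLC22A10_OE ran from -0.046 to 0.13, and in SLC22A15_OE ND1 ran from -0.0055 to 0.044, ND3 from -0.070 to 0.0091, ND5 from -0.022 to 0.038 and ND6 from -0.014 to 0.078. With a term for the libraries low in ribosomal RNA, 2 members (ND2 and ND4L, both lower) passed in SLC22A15_OE against vector and 7 between the lines; the cause was not tested. Leaving out 1 library gave 4 to 6 called members in SLC22A10_OE against vector, 0 to 1 in SLC22A15_OE against vector and 4 to 6 between the lines. ND6 in SLC22A10_OE also lost its call with scaling to reads outside the mitochondrial genome (limma adjusted p = 0.0557). With a replicate block by column number over all 9 libraries, 5, 0 and 4 members passed, as without it; the block within SLC22A15_OE and vector alone, added after seeing the data, gave 3 in SLC22A15_OE (ND2, ND4L and ND4, all lower), and the cause was not tested. Over all genes, SLC22A10_OE against vector had 5047 higher and 4728 lower, 3875 and 6233 with median centring (which moved the median by -0.12) and 2299 and 7873 with mitochondrial mRNA scaling. Between the lines 4484 and 4674 became 5798 and 3713, and 8403 and 1770. SLC22A15_OE against vector had 1572 and 1394, 1247 and 708 with mitochondrial mRNA scaling, 2868 and 2740 with the ribosomal RNA term and 2338 and 2134 without those libraries. Depth did not limit the members, whose spread between libraries exceeded counting error.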
